A study of Mus musculus with 8 samples.

Results

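Brown and beige adipocytes burn fuel to make heat, and 10 genes that mark this programme were followed here in gonadal white fat of mice with and without Pex5: Ucp1, Ucp3, Prdm16, Ppargc1a, Ppargc1b, Cidea, Dio2, Cox7a1, Cox8b and Ebf2. They were taken by name, as all 22 probe sets whose platform symbol was exactly 1 of these 10 genes, out of 45037 probe sets and 18193 genes in all. A probe set is the group of short array probes that reports on 1 transcript. Where a gene had several, the one that was brightest on average stood for it, and the others are given beside it. None of the 10 genes differed between the genotypes at an adjusted p under 0.05, so each difference below is given as a value with its 95% interval.

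Total RNA from gonadal fat at 10 weeks of age was hybridised to 8 Affymetrix arrays, 1 for each sample. The 4 Pex5 knockout arrays, numbered 6, 8, 9 and 10, came from aP2-Pex5 -/- mice, and the 4 control arrays, numbered 1, 2, 3 and 4, from mice labelled wild type. The design text gives a Swiss background for the controls, and the labels give normal husbandry, no treatment and no sex. Pex5 is the receptor that brings newly made enzymes into peroxisomes, and the design text describes the knockouts as lacking working peroxisomes in fat. The aP2 (Fabp4) promoter, which drives the deletion, is active in adipocytes and is known to be active in some other cells too, and whole tissue was measured, so cells that keep Pex5 may contribute to every value. No label states whether each array had an animal of its own, and the p-values therefore reflect only how these 8 samples scatter.

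The deposited RMA values are on the log2 scale, so a difference of 1 is a doubling, and they ran from 2.71 to 14.83, with array medians between 6.44 and 6.52. The 2 probe sets for Pex5 itself lay at 9.50, 9.27, 9.38 and 9.30 (1426770_at) and 9.30, 9.15, 8.75 and 9.06 (1422063_a_at) on knockouts 6, 8, 9 and 10, against 9.52, 9.58, 9.34 and 9.06 and 9.005, 9.39, 9.16 and 8.55 on controls 1, 2, 3 and 4. Where these probes lie relative to the deleted part was not analysed here, so they do not check the genotype. The mean of 7 measured white adipocyte markers, which include the hormones Adipoq and Lep, was 13.22 to 13.39 in knockouts and 13.08 to 13.36 in controls. The arrays fell into 2 sets by the lower quartile of their values, with knockouts 6 and 8 and controls 1 and 2 in one set and knockouts 9 and 10 and controls 3 and 4 in the other. In the order in which the series lists its samples, these are also the first 4 and the last 4. The sources give no scan or extraction batch. Each set holds 2 arrays of each genotype. A control probe set pair for pyruvate carboxylase, whose 3′ minus 5′ difference grows as RNA is shortened, read 2.10, 1.77, 4.65 and 1.60 in knockouts 6, 8, 9 and 10 and 3.97, 1.59, 2.08 and 4.83 in controls 1, 2, 3 and 4.

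In brown fat, Ucp1 sits in the inner mitochondrial membrane and lets protons flow back without making ATP, so that respiration is released as heat. Noradrenaline from sympathetic nerves raises cyclic AMP in the adipocyte, which induces Ucp1, Dio2 and Ppargc1a; Prdm16 and Ebf2 set up the brown and beige identity, and Ppargc1a and Ppargc1b drive the making of mitochondria. Beige adipocytes turn on the same genes within white depots, readily in inguinal fat and much less so in gonadal fat of mice kept at usual housing temperatures.

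RefSeq promoter sequences (GRCm38.p6, 250 bases before to 50 bases after each start) were analysed for 7 of the 10 genes. Those of Ppargc1b, Cidea and Ebf2 were left out of the analysis. Of the 7, 4 are shown. Ucp3 and Ppargc1a had the widest ranges over the 8 arrays, and Cox7a1 and Cox8b were the pair that varied most closely together. Capitals mark matches, on either strand, to AGGTCA, the half-site bound by thyroid hormone, retinoid and PPAR receptors, and to TGACG, the half-site of the cyclic AMP response element.
Ucp3 (chr7:100472741-100473040, plus strand): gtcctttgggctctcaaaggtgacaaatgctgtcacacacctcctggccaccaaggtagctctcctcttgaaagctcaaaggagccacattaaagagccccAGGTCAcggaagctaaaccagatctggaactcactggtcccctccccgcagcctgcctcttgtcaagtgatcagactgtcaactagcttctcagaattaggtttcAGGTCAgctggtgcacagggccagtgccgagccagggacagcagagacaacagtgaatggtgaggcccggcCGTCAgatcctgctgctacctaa
Ppargc1a (chr5:51567676-51567975, minus strand): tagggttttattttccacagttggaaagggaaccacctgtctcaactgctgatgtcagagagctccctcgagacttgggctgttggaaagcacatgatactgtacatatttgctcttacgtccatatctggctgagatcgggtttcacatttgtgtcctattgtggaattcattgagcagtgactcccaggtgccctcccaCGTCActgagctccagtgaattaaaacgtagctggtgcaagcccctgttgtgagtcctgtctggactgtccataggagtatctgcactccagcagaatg
Cox7a1 (chr7:30183921-30184220, plus strand): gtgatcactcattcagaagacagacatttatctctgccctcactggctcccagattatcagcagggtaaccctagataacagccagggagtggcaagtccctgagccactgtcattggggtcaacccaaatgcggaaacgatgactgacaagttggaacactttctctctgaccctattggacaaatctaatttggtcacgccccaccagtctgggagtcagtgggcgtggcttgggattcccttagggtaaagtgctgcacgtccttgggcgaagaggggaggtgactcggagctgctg
Cox8b (chr7:140900397-140900696, minus strand): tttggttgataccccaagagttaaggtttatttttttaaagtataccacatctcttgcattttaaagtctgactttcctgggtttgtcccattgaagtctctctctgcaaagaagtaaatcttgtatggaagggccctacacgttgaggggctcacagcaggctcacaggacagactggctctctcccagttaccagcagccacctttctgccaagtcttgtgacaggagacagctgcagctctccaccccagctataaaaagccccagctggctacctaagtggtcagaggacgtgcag
AGGTCA was found in 2 of the 7 windows, first reached 14 bases before the start in Ucp1 and 149 and 44 bases before it in Ucp3. It occurs in 16.3% of 32851 mouse promoter windows of the same length. TGACG was found in 4 of the 7: 147 bases before the start of Ucp1, 28 bases after that of Ucp3, 49 bases before that of Ppargc1a, and 95 and 92 bases before that of Dio2, where both matches overlap in the full palindrome TGACGTCA. TGACG occurs in 20.8% of the windows and TGACGTCA in 1.79%. CCCNNGGG, the core recognised by EBF factors such as Ebf2, was in none of the 7 and in 13.7% of all windows. A match describes these letters in this window and nothing about binding.

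Across the 10 genes, 5 were higher and 5 lower in knockouts, with a median difference of 0.000864 on the log2 scale, against 8499 higher and 9694 lower and a median of -0.01 over all 18193 genes. No gene of the 10 passed limma's test at an adjusted p under 0.05, where 0 of 18193 genes did (0.0%). At an unadjusted p under 0.05 there was 1 of 10, Prdm16, where 466 of all genes stood (2.56%). For none of the 10 did the knockout and control arrays separate without overlap, which 310 of all genes did (1.7%). The same held for the 22 probe sets: 12 were higher and 10 lower, 1 had an unadjusted p under 0.05 (2.53% of all probe sets did), and none separated the groups (1.6% of all did). Single arrays weighed on these counts: without control 4, 2 of the 10 genes were higher, 2 had an unadjusted p under 0.05 and 1566 of all genes did, while without knockout 8 or knockout 10 the last count was 310 or 283. With 4 arrays a group, the 95% interval of a typical gene reached 0.248 to either side on the log2 scale, a fold of 1.19.

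**Figure D1:**
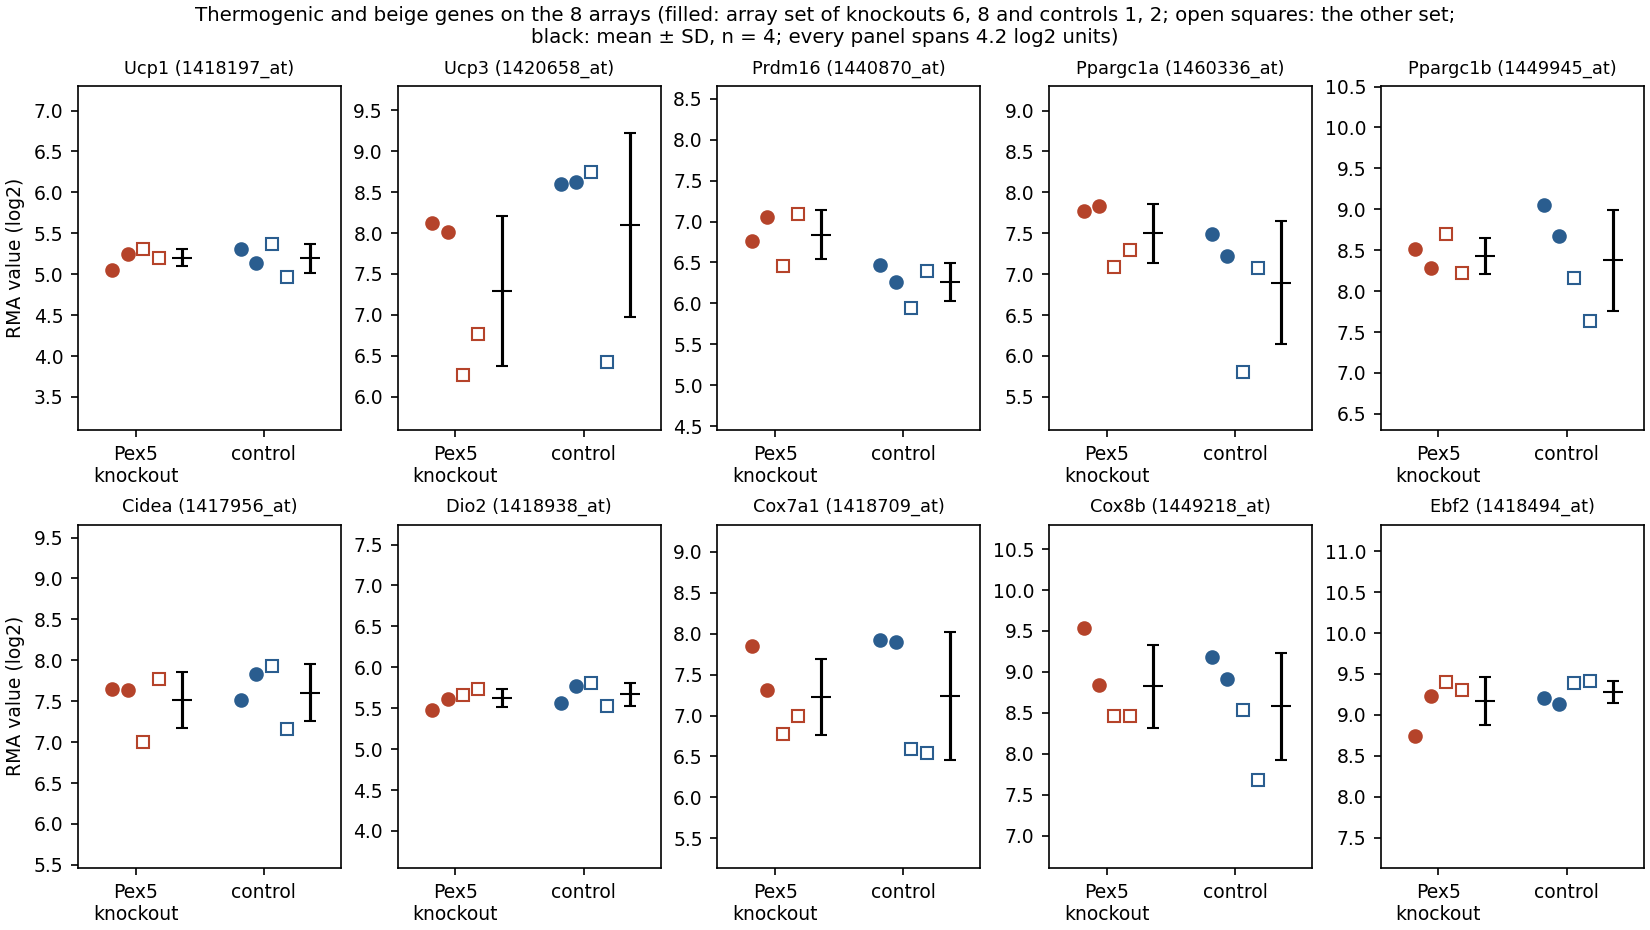
RMA value (log2, vertical axis) of each of the 10 genes on the 4 Pex5 knockout arrays (red) and 4 control arrays (blue), 1 point per array, with the mean and SD (n = 4) in black; filled circles and open squares are the 2 array sets, and all panels span 4.2 log2 units. The groups overlap in all 10 panels. On the probe sets shown, Ucp1 and Dio2 stay within 0.41 over the 8 arrays, while Ucp3 spans 2.49.

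The uncoupling proteins gave opposite pictures of spread. Ucp1, which defines the thermogenic adipocyte, read 5.06, 5.24, 5.30 and 5.20 on knockout arrays 6, 8, 9 and 10, against 5.30, 5.14, 5.37 and 4.96 on control arrays 1, 2, 3 and 4. The highest and the lowest array were both controls and the knockouts lay between them. Its mean was 5.20 ± 0.10 in knockouts and 5.19 ± 0.18 in controls (SD, n = 4 each), a difference of 0.01 (95% interval -0.23 to 0.25, limma adjusted p = 0.999), or 1.01-fold with an interval of 0.853 to 1.19. The table holds no detection calls, so whether this level is above background is not known from it, and at a low signal the difference can be compressed.

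Ucp3, the uncoupling protein of muscle and brown fat, whose function is less settled than that of Ucp1 and whose gene responds to fatty acids in muscle, read 8.12, 8.01, 6.27 and 6.77 on knockouts 6, 8, 9 and 10, against 8.60, 8.62, 8.75 and 6.42 on controls 1, 2, 3 and 4 (1420658_at). On this probe set the values formed 2 clusters rather than 2 genotypes. Knockouts 9 and 10 and control 4 were low, and the other 5 arrays were high, with an empty stretch of 1.24 between them. Averages were 7.29 ± 0.92 in knockouts and 8.10 ± 1.12 in controls (SD, n = 4 each). They differed by -0.81 (95% interval -2.22 to 0.60, limma adjusted p = 0.999). Its spread over the 8 arrays, an SD of 1.04, was at or above that of 98.6% of genes. The second Ucp3 probe set, 1420657_at, gave much the same order: 7.91, 7.69, 7.06 and 7.45 on knockouts 6, 8, 9 and 10 and 8.30, 8.25, 8.20 and 6.67 on controls 1, 2, 3 and 4, a difference of -0.33. The same 3 arrays were lowest there, but without such an empty stretch, as knockout 10 (7.45) lay close to knockout 8 (7.69). Without control 4 the difference on 1420658_at was -1.37, and without knockout 9 it was -0.47. The 3 low arrays belonged to the same array set, within which the difference was -1.07, against -0.55 in the other set (2 arrays per genotype in each). Control 3, from the set that held the low arrays, had the highest Ucp3 of all. Markers of skeletal muscle, the other tissue rich in Ucp3, spanned little: the mean of 12 of 12 such markers was 6.03 to 6.06 in knockouts and 5.96 to 6.04 in controls. In a bulk sample, fewer cells of a type and less RNA per cell cannot be told apart.

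Among the regulators of identity, Prdm16, the zinc-finger coregulator that holds brown and beige adipocytes to their fate, had the smallest p of the 10 genes. Its brightest probe set, 1440870_at, read 6.76, 7.06, 6.45 and 7.09 on knockouts 6, 8, 9 and 10, against 6.46, 6.26, 5.94 and 6.40 on controls 1, 2, 3 and 4. All knockouts but number 9 lay above every control, and knockout 9 lay just under control 1. The mean was 6.84 ± 0.30 in knockouts and 6.27 ± 0.23 in controls (SD, n = 4 each), a difference of 0.58 (95% interval 0.19 to 0.96), or 1.49-fold. The unadjusted limma p was under 0.05 and the adjusted p was 0.999. The difference was 0.55 and 0.60 within the 2 array sets, and 0.47 to 0.71 when any 1 array was left out.

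The other 3 Prdm16 probe sets did not share this difference. On 1440745_at the knockouts read 5.73, 6.01, 6.29 and 6.01 and the controls 5.95, 5.69, 5.73 and 6.23, a difference of 0.11; on 1429308_at the difference was 0.05 and on 1429309_at -0.04. Over the 8 arrays 1440870_at also took another course than its partners, with Pearson r of 0.24, -0.14 and -0.52 to them (Spearman rho 0.26, -0.14 and -0.62; exact two-sided permutation p = 0.557, 0.75 and 0.194, adjusted over 23 probe set pairs 0.61, 0.75 and 0.248). On all 3 partners knockout 9 was the highest array, while on 1440870_at it was the lowest knockout. Mean levels over the 8 arrays were 5.96, 4.56 and 5.88 on 1440745_at, 1429308_at and 1429309_at, against 6.55 on 1440870_at. As for Ucp1, at 5.20, whether the levels of the 3 partners are above background is not known, and differences there can be compressed. Which transcript of Prdm16 each probe set reads was not analysed here. The difference of 0.58 is therefore that of 1 probe set out of 4.

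Ebf2, the transcription factor that marks brown and beige precursor cells and recruits PPARγ to thermogenic genes, read 8.74, 9.23, 9.41 and 9.31 on knockouts 6, 8, 9 and 10, against 9.21, 9.13, 9.39 and 9.41 on controls 1, 2, 3 and 4. Knockout 6 was the lowest array and the other knockouts lay within the range of the controls. The difference was -0.11 (95% interval -0.45 to 0.22, limma adjusted p = 0.999), and 0.03 without knockout 6. Its other probe sets gave -0.18 and -0.07, and knockout 6 was the lowest array on all 3. Any pair of the 3 followed each other over the 8 arrays, with Pearson r of 0.91 to 0.95 (Spearman rho 0.79 to 0.90, exact two-sided permutation p for r at most 0.00226, adjusted at most 0.0104; r 0.82 to 0.89 after the 2 arrays farthest from the median were left out).

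The PGC-1 coactivators bind nuclear receptors and switch on mitochondrial genes. Ppargc1a, the member induced by cold and exercise, read 7.78, 7.83, 7.09 and 7.29 on knockouts 6, 8, 9 and 10, against 7.49, 7.22, 5.80 and 7.08 on controls 1, 2, 3 and 4 (1460336_at). Knockouts 6 and 8 were the highest arrays and control 3 stood 1.28 below all others. Averages were 7.50 ± 0.36 in knockouts and 6.90 ± 0.75 in controls (SD, n = 4 each), a difference of 0.60 (95% interval -0.22 to 1.42, limma adjusted p = 0.999). All 5 Ppargc1a probe sets were higher in knockouts, by 0.29 to 0.74, and control 3 was the lowest array on all 5. Without control 3 the difference on 1460336_at was 0.24. The probe sets of 1 gene are not independent measurements, since they read the same 8 samples.

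Ppargc1b, its close relative with a more constant role in basal mitochondrial content, read 8.51, 8.29, 8.70 and 8.22 on knockouts 6, 8, 9 and 10, against 9.05, 8.67, 8.16 and 7.63 on controls 1, 2, 3 and 4. Controls 4 and 3 were the lowest arrays and control 1 the highest, knockout 9 came just above control 2, and the other knockouts lay between controls 3 and 2. The means were 8.43 ± 0.22 in knockouts and 8.38 ± 0.62 in controls (SD, n = 4 each) and differed by 0.05 (95% interval -0.59 to 0.70, limma adjusted p = 0.999). Within the array sets the difference was -0.46 and 0.57, so its sign depended on the set.

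**Figure D2:**
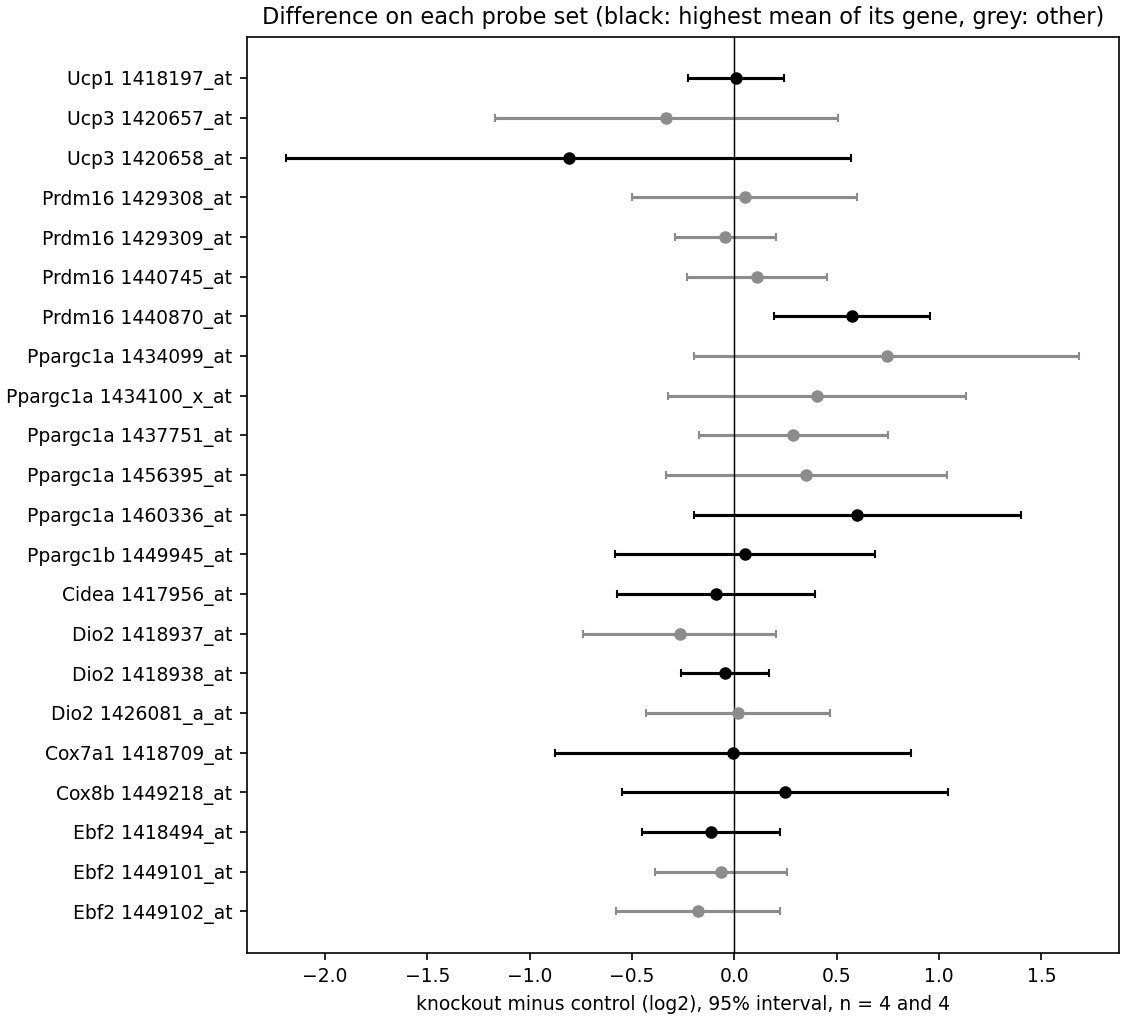
Knockout minus control difference (log2, horizontal axis) of each of the 22 probe sets with its 95% interval from the fit across all probe sets (4 and 4 arrays); black marks the probe set with the highest mean of its gene. Only Prdm16 1440870_at has an interval that leaves out 0, the other 3 Prdm16 probe sets lie near 0, and all 5 of Ppargc1a lie to the right of it.

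Cidea, a lipid droplet protein that is abundant in mouse brown fat and marks beige cells in white depots, read 7.65, 7.64, 7.003 and 7.77 on knockouts 6, 8, 9 and 10, against 7.51, 7.83, 7.93 and 7.16 on controls 1, 2, 3 and 4. Knockout 9 and control 4 were the lowest arrays and control 1 came next. These 3 are the arrays with the largest 3′ minus 5′ control differences. The difference between genotypes was -0.09 (95% interval -0.58 to 0.40, limma adjusted p = 0.999), and -0.22 with the 3′ minus 5′ value as a covariate, a fit in which 0 of 18193 genes passed an adjusted p of 0.05 in limma.

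Dio2, the deiodinase that turns thyroxine into active thyroid hormone within the brown adipocyte, read 5.48, 5.61, 5.67 and 5.73 on knockouts 6, 8, 9 and 10, against 5.56, 5.78, 5.81 and 5.53 on controls 1, 2, 3 and 4 (1418938_at). On this probe set the 8 arrays lay within 0.33 of each other in no order of genotype. The difference was -0.05 (95% interval -0.26 to 0.17, limma adjusted p = 0.999). The remaining Dio2 probe sets gave -0.27 on 1418937_at and 0.02 on 1426081_a_at, with intervals of -0.74 to 0.20 and -0.43 to 0.47. Over the 8 arrays these ranged more widely, by 0.95 and 0.92. Pearson r between them was 0.78 (0.65 without control 2 and knockout 8), against 0.33 and 0.18 with 1418938_at. As for Ucp1, whether these levels are above background is not known.

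Cox7a1 and Cox8b encode the heart and muscle isoforms of 2 small subunits of cytochrome c oxidase, the last enzyme of the respiratory chain, and in fat they mark brown and beige cells. Cox7a1 read 7.85, 7.31, 6.78 and 6.99 on knockouts 6, 8, 9 and 10, against 7.92, 7.90, 6.59 and 6.54 on controls 1, 2, 3 and 4. Controls 1 and 2 and knockout 6 were high, and controls 3 and 4 the lowest of all. The means were 7.23 ± 0.47 in knockouts and 7.24 ± 0.78 in controls (SD, n = 4 each). They differed by -0.01, and the 95% interval was wide, -0.89 to 0.88 (limma adjusted p = 0.999).

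Cox8b, which is a working gene in mice and not in humans, read 9.54, 8.84, 8.46 and 8.46 on knockouts 6, 8, 9 and 10, against 9.18, 8.92, 8.53 and 7.68 on controls 1, 2, 3 and 4. Knockout 6 and control 1 were again high, and control 4 was the lowest. The means were 8.83 ± 0.51 in knockouts and 8.58 ± 0.65 in controls (SD, n = 4 each), a difference of 0.25 (95% interval -0.56 to 1.06, limma adjusted p = 0.999), and -0.05 without control 4. For both genes every array of the set with knockouts 6 and 8 and controls 1 and 2 lay above every array of the other set, at 7.31 to 7.92 against 6.54 to 6.99 for Cox7a1 and at 8.84 to 9.54 against 7.68 to 8.53 for Cox8b. Ebf2 had the opposite order without overlap, at 8.74 to 9.23 against 9.31 to 9.41. These 3 of the 10 genes separated the array sets where 2625 of all 18193 genes did (14.4%); the sets were drawn from the lower quartile of each whole array, so nothing particular to the 10 genes can be read from this order.

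How far the genes varied together was asked over the 8 arrays for all 45 pairs. By neither Pearson r nor Spearman rho did a pair pass a Benjamini-Hochberg adjusted p under 0.05 over the 45, and for r 7 had an unadjusted exact permutation p under 0.05, 1 of them with Ucp3. The closest pair was Cox7a1 with Cox8b (n = 8, Pearson r 0.86 and Spearman rho 0.86, exact two-sided permutation p = 0.00208 and 0.0107, Benjamini-Hochberg adjusted over the 45 pairs 0.0938 and 0.161). Its r was 0.90 after controls 1 and 2, farthest from the median of Cox7a1, were left out (exact p = 0.00694), and 0.52 when each value was taken relative to the mean of its array set. Within 1 set there are 4 arrays, too few for a correlation of its own.

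Ebf2 ran against both. With Cox7a1 the relation was negative (n = 8, Pearson r -0.77 and Spearman rho -0.88, exact two-sided permutation p = 0.00501 and 0.00724, Benjamini-Hochberg adjusted over the 45 pairs 0.113 and 0.161), with r -0.94 without controls 1 and 2 and -0.37 relative to the array set means. With Cox8b it was negative too (n = 8, Pearson r -0.82 and Spearman rho -0.95, exact two-sided permutation p = 0.0131 and 0.00114, Benjamini-Hochberg adjusted over the 45 pairs 0.158 and 0.0513), with r -0.81 without control 4 and knockout 6 and -0.59 relative to the array set means. Without knockout 6, chosen after seeing that it stood apart in Ebf2, r was -0.95 with Cox7a1 and -0.78 with Cox8b (n = 7, exact permutation p = 0.00179 and 0.0234, unadjusted). All 3 relations were smaller relative to the array set means than over the 8 arrays.

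Prdm16, read by 1440870_at, and Ppargc1a varied in the same direction in part (n = 8, Pearson r 0.77 and Spearman rho 0.79, exact two-sided permutation p = 0.014 and 0.0279, Benjamini-Hochberg adjusted over the 45 pairs 0.158 and 0.251). Control 3 was the lowest array for both, while knockout 10 was the highest for Prdm16 and lay below control 1 and knockouts 6 and 8 for Ppargc1a. The r was 0.92 without knockouts 8 and 10 and 0.83 relative to the array set means, but 0.59 without control 3 (n = 7, exact permutation p = 0.16, an array left out after its value was seen) and 0.34 with the mean of all probe sets of each gene. Ppargc1b and Cox7a1 gave r 0.72 and rho 0.76 (n = 8, exact permutation adjusted p = 0.251 for r). The r was 0.63 relative to the array set means and 0.47 without controls 1 and 4. Those are the highest and lowest arrays for Ppargc1b, and leaving out the ends of a range can itself lower r. For Ucp3 no coefficient is given, since its values fall into 2 clusters, although its 9 pairs are counted among the 45.

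**Figure D3:**
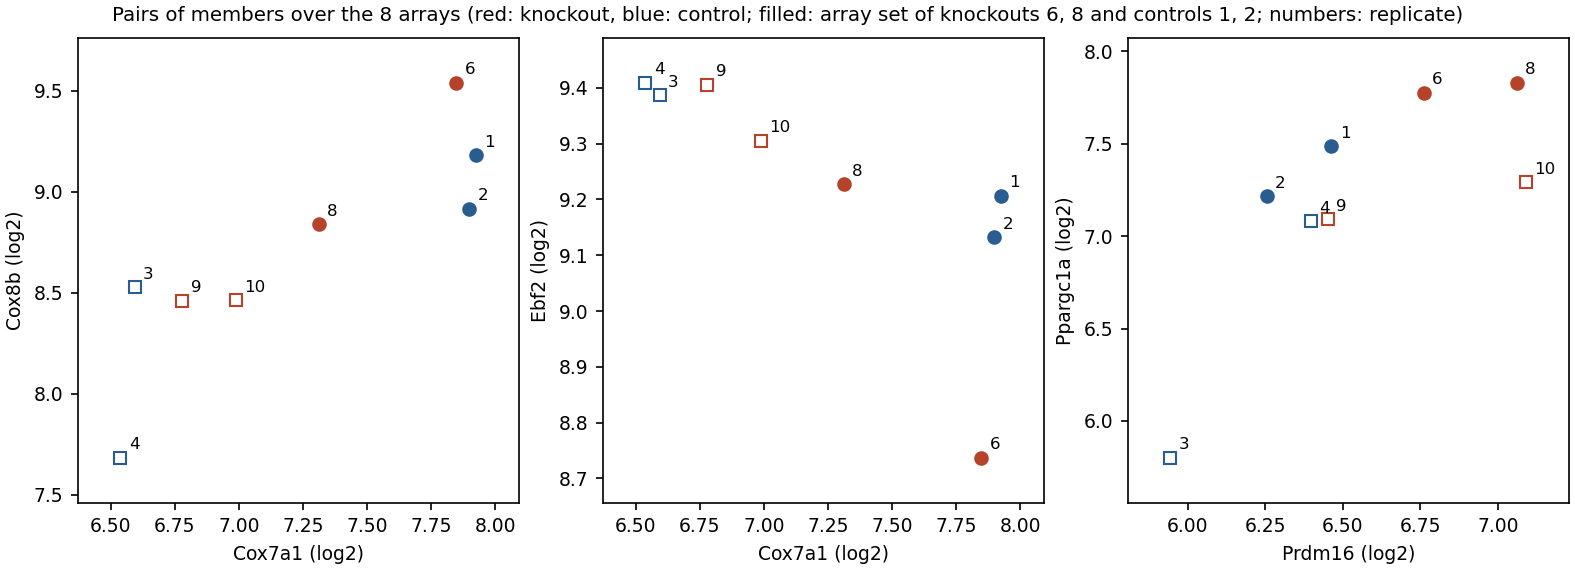
RMA values (log2, both axes) of Cox8b and of Ebf2 against Cox7a1, and of Ppargc1a against Prdm16, 1 point per array labelled by its replicate number (red, Pex5 knockout; blue, control; filled, the array set of knockouts 6 and 8 and controls 1 and 2). Cox7a1 splits the 2 array sets at 7.31 against 6.99, and control 3 lies alone at the lower left of the Ppargc1a panel.

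Genes of other tissues moved with some of these patterns. The mean of 6 of 6 liver markers was 8.78, 7.51, 5.90 and 6.86 on knockouts 6, 8, 9 and 10 and 11.03, 8.23, 7.38 and 5.92 on controls 1, 2, 3 and 4. Control 1 and knockout 6 were high and knockout 9 and control 4 low, much as for Cox8b. Like Cox8b, this mean separated the 2 array sets, at 7.51 to 11.03 against 5.90 to 7.38, as 14.4% of all genes did in either direction. The likeness to Cox8b cannot be told apart from the array sets. The 6 liver markers differed between genotypes by -0.63 to -1.13 (median -0.90), and none of them passed the test. Without control 1, left out after its value was seen, 3 were higher and 3 lower, with a median of 0.06. Of the 8 reproductive organ markers 7 were measured, at a mean of 6.43 to 7.39 in knockouts and 5.89 to 7.47 in controls, lowest on control 2 (5.89) and next lowest on control 3 (6.15), and the 4 with the smallest p followed different arrays. Greb1, an oestrogen-induced gene, read 9.69, 10.12, 9.13 and 9.85 on knockouts 6, 8, 9 and 10 and 9.35, 7.92, 4.92 and 9.57 on controls 1, 2, 3 and 4. Foxj1, the master gene of motile cilia, read 8.95, 9.24, 8.01 and 8.37 on those knockouts and 8.92, 7.25, 4.91 and 9.02 on those controls. Both were lowest on control 3, the lowest array for Prdm16 1440870_at and the 5 Ppargc1a probe sets too, and next lowest on control 2. Pgr, the progesterone receptor, read 4.52, 4.97, 4.44 and 5.33 on those knockouts and 4.34, 4.03, 4.15 and 4.64 on those controls, lowest on control 2, a difference of 0.52 (95% interval 0.03 to 1.02). Prm1, the sperm protamine, ran the other way, with 6.86, 7.16, 10.38 and 7.22 on those knockouts and 7.48, 7.02, 10.12 and 8.37 on those controls, so that control 3 was the second highest array after knockout 9. None of the 4 passed the test between genotypes at an adjusted p under 0.05. The part of these other tissues in the differences of the 10 genes was not tested.

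**Figure D4:**
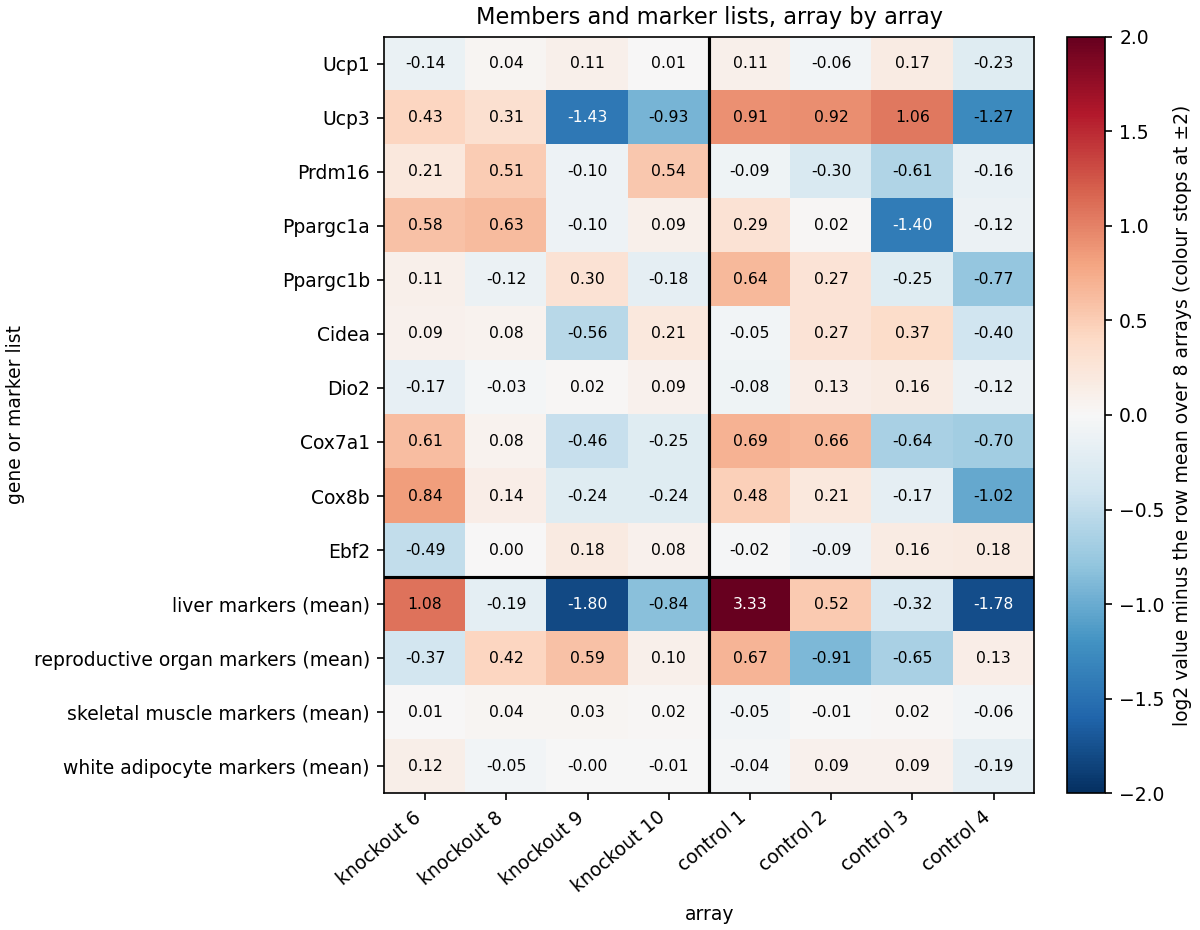
Each cell gives a gene's log2 value minus its mean over the 8 arrays (colour, stopping at ±2), with arrays in columns, knockouts left of the black line, and the means of 4 marker lists in the lower rows. Liver markers run from -1.80 on knockout 9 to 3.33 on control 1, while skeletal muscle and white adipocyte markers stay between -0.19 and 0.12.

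The nearest relatives of the 10 genes, isoforms and paralogues with other tissue ranges, were followed as a contrast, and 12 of 14 were measured. Of these, 6 were higher and 6 lower, the median difference was 0.02 and none passed the test. Cidec, the fat-specific protein that makes the single large droplet of white adipocytes, differed by -0.08, and Cideb, its liver and gut relative, by 0.76 with an interval of -0.53 to 2.06. Cideb read 8.73, 8.83, 7.85 and 8.39 on knockouts 6, 8, 9 and 10 and 8.81, 7.24, 6.11 and 8.58 on controls 1, 2, 3 and 4, lowest on control 3, like Greb1 and Foxj1. Among the relatives of Cox7a1 and Cox8b, 3 had narrow intervals: Cox7a2 differed by -0.07 (-0.29 to 0.14), Cox7a2l by 0.06 (-0.15 to 0.27) and Cox8a by -0.03 (-0.20 to 0.14). Cox8c, described mainly in testis, differed by 0.09. Over the 8 arrays Cox8a ranged by 0.23 and Cox7a2 by 0.33, against 1.85 for Cox8b and 1.39 for Cox7a1. The Ebf paralogues Ebf1, Ebf3 and Ebf4 differed by 0.06, -0.02 and 0.14, the Prdm16 paralogue Mecom by -0.09, the third PGC-1 family member Pprc1 by -0.12, and the deiodinase Dio1, an enzyme of liver and kidney, by 0.33.

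Wider lists around the thermogenic programme were read against all genes, of which 46.7% were higher. Of 23 regulators of thermogenic transcription, 11 were higher and 12 lower (median -0.01), with the smallest unadjusted p for Tle3, a corepressor that opposes Prdm16, at 0.29, followed by Twist1, a repressor of Ppargc1a targets, at -0.27, the nuclear receptor Esrrg at 0.84 and Nfia, a factor that opens brown fat enhancers, at 0.14. Esrrg was again lowest on control 3, at 4.55 against 6.26 to 7.20 in knockouts. Of 16 signals and receptors 11 were measured, 4 higher and 7 lower (median -0.06). Klb, the coreceptor for Fgf21, differed by -0.41 (95% interval -0.81 to -0.00175, limma adjusted p = 0.999), the natriuretic peptide clearance receptor Npr3 by 0.26, Bmp7 by 0.29 and Fgf21 by 0.29. None of these lists held a gene past an adjusted p under 0.05 in limma.

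Of 20 other brown and beige adipocyte genes 18 were measured, 11 higher and 7 lower, with a median of 0.03. Elovl3, the fatty acid elongase strongly induced in cold-exposed brown fat, read 5.11, 5.23, 4.99 and 5.21 on knockouts 6, 8, 9 and 10, against 5.77, 6.13, 5.96 and 5.17 on controls 1, 2, 3 and 4. Controls 1, 2 and 3 lay above every knockout and control 4 lay among the knockouts. The difference was -0.62 (95% interval -1.06 to -0.18, limma adjusted p = 0.999). It lay in the opposite direction to that of Prdm16 1440870_at and Ppargc1a. Mpzl2, Tbx1, a beige marker, and Acot11, a cold-induced thioesterase, differed by 0.37, 0.45 and 0.41. Of 12 genes of creatine and calcium cycling, routes of heat production that do not need Ucp1, 5 were higher and 7 lower (median -0.05). Creatine kinase Ckb differed by 0.56, the calcium release channel Ryr2 by -0.62, mitochondrial creatine kinase Ckmt1 by -0.41 and the creatine transporter Slc6a8 by 0.33. Of 18 mitochondrial biogenesis genes, 4 were higher and 14 lower, by small amounts between -0.18 and 0.12 (median -0.07). Its smallest p-values belonged to Tfb1m (-0.18) and Polrmt (-0.17), of mitochondrial transcription and ribosomes, cytochrome c, Cycs (-0.15), and Nrf1 (-0.09), a partner of Ppargc1a. The mean of these 18 genes was 10.45 and 10.41 on controls 1 and 2. On controls 3 and 4 it was 10.25 and 10.24, within the 10.22 to 10.33 of the knockouts. The median difference was -0.12 within the array set of controls 1 and 2 and 0.000669 within the other.

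Among 9097 genes at or above the median level, the course most like that of Ucp1 over the 8 arrays was that of Itsn1 (Pearson r 0.91), Sulf2 (0.91), Tango2 (0.88), Lyrm2 (0.87) and Tmem141 (0.87). These r describe 8 arrays that share their normalisation, over which Ucp1 had an SD of only 0.137. Sulf2, for example, read 12.05, 12.24, 12.30 and 12.13 on knockouts 6, 8, 9 and 10 and 12.34, 12.23, 12.45 and 12.06 on controls 1, 2, 3 and 4, with control 3 highest, as for Ucp1.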

How the data were processed

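The deposited table holds log2 expression values of 45101 probe sets on 8 Affymetrix arrays, which the authors made with RMA (background correction, normalisation between arrays, summary of the probes of a set), per the submitters' processing notes, version not given in the sources used here. No detection calls and no counts come with it, so the precision rests on how many arrays there were. Tests left out 64 control probe sets. Of the rest, 34945 had 1 gene symbol in the platform annotation, 932 several and 9160 none; probe sets with several named no gene. Of the named ones, 34741 matched RefSeq, and 0 symbols changed. Each gene was represented by its probe set with the highest mean.

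Knockout and control were compared by lmFit and eBayes without a covariate (limma 3.58.1, R 4.3.3), with Benjamini-Hochberg adjustment over all 18193 genes, or over all 45037 probe sets, and a threshold of 0.05; the fit was tested on simulated data. Correlations used exact permutation over the 40320 pairings of 8 arrays. The genes and lists were chosen with earlier results of these data known, and no test was run on a list as a whole. All 10 genes and their measured relatives are named; from every other list described, genes are named out of the 4 with the smallest unadjusted p, and where a list's range is given it covers all its measured genes. The 5 genes most like Ucp1 by Pearson r are named too, with genes of the lists and symbols that only number a clone passed over. Alternatives changed the variance model, normalisation, choice of probe set, array weights, dim-gene filter, array set, RNA quality covariate, threshold, tool and arrays left out. All sample columns of the table were used.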

Additional observations from a re-analysis of the deposited data

Results flagged for a closer look

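Control 4 stood apart from the other controls on both Ucp3 probe sets, by a gap to its nearest neighbour that took more of the range of the 4 arrays than Dixon's 95% critical value allows. On 1420658_at it read 6.421, where controls 1, 2 and 3 read 8.602 to 8.752. On 1420657_at it read 6.667, where those controls read 8.201 to 8.303. The knockouts showed no such single array, since 2 of the 4 were low on 1420658_at. All 22 probe sets were checked in both groups, 44 sets of 4 arrays, and these 2 were found; chance alone flags about 1 in 20, and both belong to 1 gene and 1 array. Control 4 also had the largest 3′ minus 5′ control difference, 4.83. Knockouts 9 and 10, also low in Ucp3, had 4.65 and 1.60, and control 1, which was high in Ucp3, had 3.97. With the 3′ minus 5′ value as a covariate in limma, the Ucp3 difference on 1420658_at was -1.10. The cause of the low Ucp3 values was not tested.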

How the results depend on the processing

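No gene was called at an adjusted p under 0.05 in limma (466 at an unadjusted p under 0.05), by a Welch test per gene (0 called, 417 unadjusted), at a threshold of 0.1, or under any other alternative run. Of 186 alternative values of the 10 genes, 159 kept their direction, 27 turned and 0 changed a call; the smallest adjusted p was 0.552. Ucp3 and Ppargc1a kept their direction in all, and Prdm16 in all but probe set 1429309_at (-0.0445). Ucp1 turned with quantile normalisation again (-0.00553), array medians subtracted (-0.0192), array weights (-0.00297) and within the array set of knockouts 6 and 8 and controls 1 and 2 (-0.0723). Ppargc1b turned with array weights (-0.134) and within that set (-0.461). Within the other set Dio2 (0.0322) and Cox7a1 (0.319) turned, and Dio2 also on probe set 1426081_a_at (0.0177). Leaving out 1 array in turn gave -0.0687 to 0.0661 for Ucp1, -0.196 to 0.277 for Ppargc1b, -0.241 to 0.0794 for Cidea, -0.0938 to 0.00163 for Dio2, -0.24 to 0.222 for Cox7a1, -0.0497 to 0.45 for Cox8b and -0.194 to 0.029 for Ebf2; the cause was not tested. With the mean of all probe sets of a gene, 3 pairs of genes had a correlation with an adjusted exact permutation p under 0.05 over the 8 arrays, where 0 did before. They were Cox7a1 with Ebf2, Cox7a1 with Cox8b, and Ucp3 with Prdm16, the last of them negative. Its coefficient is not given because of the clusters of Ucp3. On the brightest probe sets the adjusted exact permutation p for r of Ucp3 with Prdm16 was 0.703. Cox7a1 and Cox8b have 1 probe set each, so their r and p were as before (0.857 and 0.00208, exact permutation) and their adjusted value fell to 0.0402 through the ranks of the other pairs. Within the array set of knockouts 6 and 8, 3 of the 10 genes were higher, within the other set 7, and with array weights 3. Over the lists of related genes, 4 alternative medians moved by more than the spread between arrays. A filter on dim genes left 4 of the 10 genes, so the others had no value there. No paired analysis was possible because the replicate numbers of the 2 groups do not overlap (6, 8, 9 and 10 against 1, 2, 3 and 4).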

Other observations

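Macrophage markers, which the account of the thermogenic genes does not use, were lower in knockouts for 8 of 8 genes (median difference -0.26), with Adgre1 at -0.44 and Cd68 at -0.37. Their mean was 9.86 on knockout 6 and 10.19 to 10.30 on the other knockouts, against 10.13 to 10.62 on controls, and without knockout 6 or without control 3 they were lower for 5 of 8 (median -0.15 or -0.23; arrays were left out of these lists after their values were seen). Smooth muscle markers were higher for 6 of 6 (median 0.37), with Cnn1 at 0.66 and Acta2 at 0.40, yet the highest mean of all 8 arrays was that of control 4, at 9.19, against 8.73 to 9.06 in knockouts, and the other controls lay below every knockout. Without control 4 the median was 0.58, and without control 2 they were higher for 4 of 6 (median 0.26). Of 7 measured white adipocyte markers 4 were higher and 3 lower (median 0.00134), with leptin, Lep, at 0.52. Of 7 measured fibroblast and preadipocyte markers 5 were higher and 2 lower (median 0.00926). The preadipocyte gene Dlk1 differed by -0.48, its knockout arrays at 5.23 to 5.63 all below its control arrays at 5.91 to 6.04. Such a lack of overlap was seen for 310 of all 18193 genes (1.7%). No marker of these 4 cell types passed an adjusted p under 0.05 in limma. Mesothelium markers were lower for 5 of 6 genes (median -0.47), and the exception, Krt19, differed by 0.44. Knockout 6 had a mesothelium mean of 7.43, below the 8.48 to 9.31 of the other knockouts and the 8.47 to 9.50 of controls. Without it 4 of 6 were lower, with a median difference of -0.04 and a mean difference of 0.05, and Upk3b differed by -0.07 in place of -0.59; without control 3 the median was -0.14. Of 6 endothelial markers 1 was higher and 5 lower (median -0.02), with Pecam1, Cdh5, Kdr and Emcn at -0.06 to -0.01. Without knockout 8 or without control 3, 5 of the 6 were higher, and without control 1 all 6 were lower. Of the nerve and Schwann cell markers 6 of 8 were measured, 4 higher and 2 lower (median 0.02). Npy differed by -0.87 (95% interval -2.52 to 0.79). It read 9.54 on control 1, against 6.14, 6.08 and 6.23 on controls 2, 3 and 4 and 6.01 to 6.33 in knockouts. Th, the enzyme of noradrenaline synthesis in sympathetic nerves, differed by 0.03 (95% interval -0.25 to 0.30).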
